A study of Mus musculus with 6 samples.

Results

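The Hox genes are the 39 homeobox genes of the 4 mammalian Hox clusters. They were taken as every row of the count table whose Entrez gene number carries a mouse symbol made of Hoxa, Hoxb, Hoxc or Hoxd and a paralogue number, which gave 39 of 27179 genes. There were 11 on chromosome 6 (Hoxa), 10 on chromosome 11 (Hoxb), 9 on chromosome 15 (Hoxc) and 9 on chromosome 2 (Hoxd). The cells were mesenchymal stromal cells of mouse bone marrow, from C57BL/6 animals of the genotype Cxcl12-dsred/+ and labelled P2, a code the labels do not spell out. They had been sorted as positive for the Cxcl12-DsRed reporter and negative for the blood marker CD45, the erythroid marker Ter119 and the endothelial marker CD31. All 6 libraries came from such cells and differ, by their labels, in the RNA fraction alone. There were 2 of Input poly(A) RNA set aside beforehand, 2 of RNA bound by control IgG (IgG) and 2 of RNA bound by an antibody to N6-methyladenosine (anti-m6A). The labels do not say from which bones the cells came, or whether libraries 1 and 2 came from separate animals, so the p-values reflect how far these particular libraries differ from each other, and that difference may be only technical.

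Hox proteins are DNA-binding transcription factors that give cells a position along the body axis and along the limb. Within a cluster, genes with low paralogue numbers are used towards the head and genes with high numbers towards the tail, and in the limb the highest numbers mark the most distal segments. Genes with the same number in different clusters are paralogues, with similar homeodomains and partly shared roles. Mesenchymal cells of the adult skeleton retain a Hox pattern set in the embryo. N6-methyladenosine (m6A) is a methyl mark on adenosines of mRNA. It is placed by a METTL3-containing writer complex, commonly at the A of GGAC within a longer consensus and often near stop codons, and it is known to affect the stability and translation of the transcript.

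The sequence pattern searched was GGACT, a common form of the m6A consensus, on the sense strand of the transcript, with 1 protein-coding GENCODE M21 transcript (GRCm38) per gene. It was present in 33 of the 39 Hox transcripts and in 87.1% of the 20628 transcripts of the table. The median density was 1.07 matches per kilobase for Hox transcripts and 1.04 for all. Within 200 nucleotides of the stop codon, 17 of the 35 Hox transcripts with a full 400-nucleotide window held a match (48.6%), against 39.9% of 15998 transcripts. By these measures Hox transcripts held the letters about as often as other transcripts. A match is a description of the sequence, not a methylated site, and the counts, summed per gene, do not locate one.

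The following windows show the match nearest to the stop codon for the 6 Hox genes that were called in anti-m6A against Input, and for Hoxa9, the one gene called higher in IgG. GGACT is in capitals, and each window is 25 nucleotides of the sense strand, 5′ to 3′, with 10 on either side of the match.
Hoxa7, chr6:52214884-52214908, minus strand, 3′ UTR: tgtttttgtgGGACTaaggagatgt
Hoxb5, chr11:96305307-96305331, plus strand, 3′ UTR: cctctctcctGGACTggttatcttg
Hoxc9, chr15:102982059-102982083, plus strand, coding: gcagctacccGGACTacatgtacgg
Hoxa6, chr6:52208311-52208335, minus strand, coding: ggggccccggGGACTacctgcactt
Hoxb3, chr11:96346443-96346467, plus strand, 3′ UTR: gggagacggcGGACTtgggggatgg
Hoxc6, chr15:103011035-103011059, plus strand, 3′ UTR: agagtgaccaGGACTgtccttgcac
Hoxa9, chr6:52224179-52224203, minus strand, 3′ UTR: gaaaaagaaaGGACTgtccgtctcc
The match began 821 nucleotides past the stop codon in Hoxa7, 182 in Hoxb5, 56 in Hoxb3, 53 in Hoxa9 and 6 in Hoxc6. In Hoxc9 and Hoxa6 it lay within the coding sequence, 364 and 397 nucleotides before the stop codon. The whole transcripts held 1 match in Hoxa7, 2 in Hoxb5 and 6 in Hoxc9, the genes called higher against Input. They held 2 in Hoxa6, 3 in Hoxb3 and 2 in Hoxc6, the genes called lower, so both directions had overlapping numbers of matches. The Hoxa7 match lies in the GENCODE 3′ UTR beyond the end of the RefSeq gene (chr6:52215623-52218573).

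**Figure D1:**
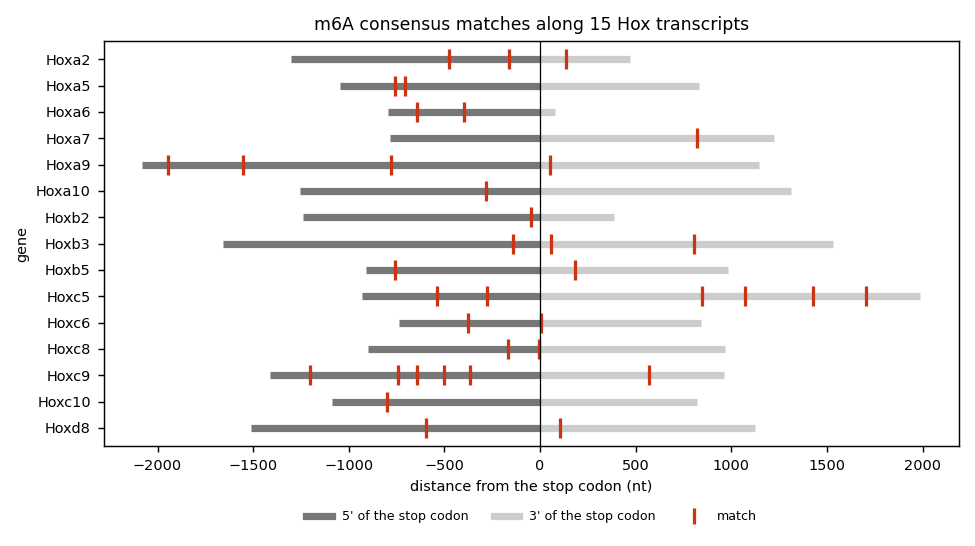
GGACT matches along the GENCODE transcripts of the 15 Hox genes that passed the count filter, with the distance from the stop codon in nucleotides on the horizontal axis. Each bar is a transcript, darker before and lighter after the stop codon, and each red tick is a match, with 1 in Hoxa7, 6 in Hoxc9 and 4 in Hoxa9.

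The deposited counts summed to between 5133237 and 9493391 in the Input and anti-m6A libraries, and to 2487148 and 1278735 in the IgG libraries. All 8 stromal markers of the list, among them Cxcl12, Lepr and Kitl, were detected in each Input and anti-m6A library, with summed levels of 6478 and 6382 CPM (counts scaled to a fixed library size) in Input and 3298 and 3413 in anti-m6A. In IgG 5 and 4 of the 8 were detected, at a summed 2816 and 2737 CPM. The defining markers of the labelled cell type were thus present. The 9 blood markers summed to 140.1 and 415 CPM in Input, 3274 and 2731 in IgG and 479.9 and 549.8 in anti-m6A, with Ptprc (CD45), Elane and Itgam at 0 in all 6. Endothelial markers summed to 41.2 and 72.4 CPM in Input, 0 in both IgG libraries and 9.96 and 9.33 in anti-m6A. Of the 4 Schwann and neural markers, at most 1 was detected in any library. The part of these other cell types in the Hox values was not tested, and in bulk libraries fewer cells of a type and less RNA per cell cannot be told apart. Measured over all genes with 20 or more counts in the pair, the Input libraries differed from each other by 119 times what random sampling gives, the IgG libraries by 21.9 times and the anti-m6A libraries by 9.93 times. These multiples of the sampling variance rise with the number of counts, which differed between the fractions. They therefore do not rank the fractions by how well their libraries agree.

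At least 1 count in some library was present for 25 of the 39 Hox genes, and 14 were at 0 throughout. Both Input libraries had counts for 15 of the 25, where 67.2% of the 14425 genes of the table with any count had them, and both anti-m6A libraries for 21, where 83.6% did. By cluster, counts were present for 10 of 11 Hoxa, 6 of 10 Hoxb, 6 of 9 Hoxc and 3 of 9 Hoxd genes. By paralogue number they were present for 9 of 12 anterior genes (numbers 1 to 4), 10 of 11 central genes (5 to 8) and 6 of 16 posterior genes (9 to 13). The 6 genes of paralogue groups 12 and 13, which pattern the hand, foot and tail end, were all at 0, and of group 11 only Hoxa11 had counts, at most 3 in a library. The others at 0 were Hoxb1, Hoxb8, Hoxb9, Hoxc11, Hoxd1, Hoxd3, Hoxd10 and Hoxd11. For a gene at 0, the limit that 3 counts stand for ranged from 0.291 CPM (Input 2) to 1.94 CPM (IgG 2), counting error only. Detection was thus most complete among the anterior and central genes and in Hoxa, and the most distal genes were not detected at this depth.

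**Figure D2:**
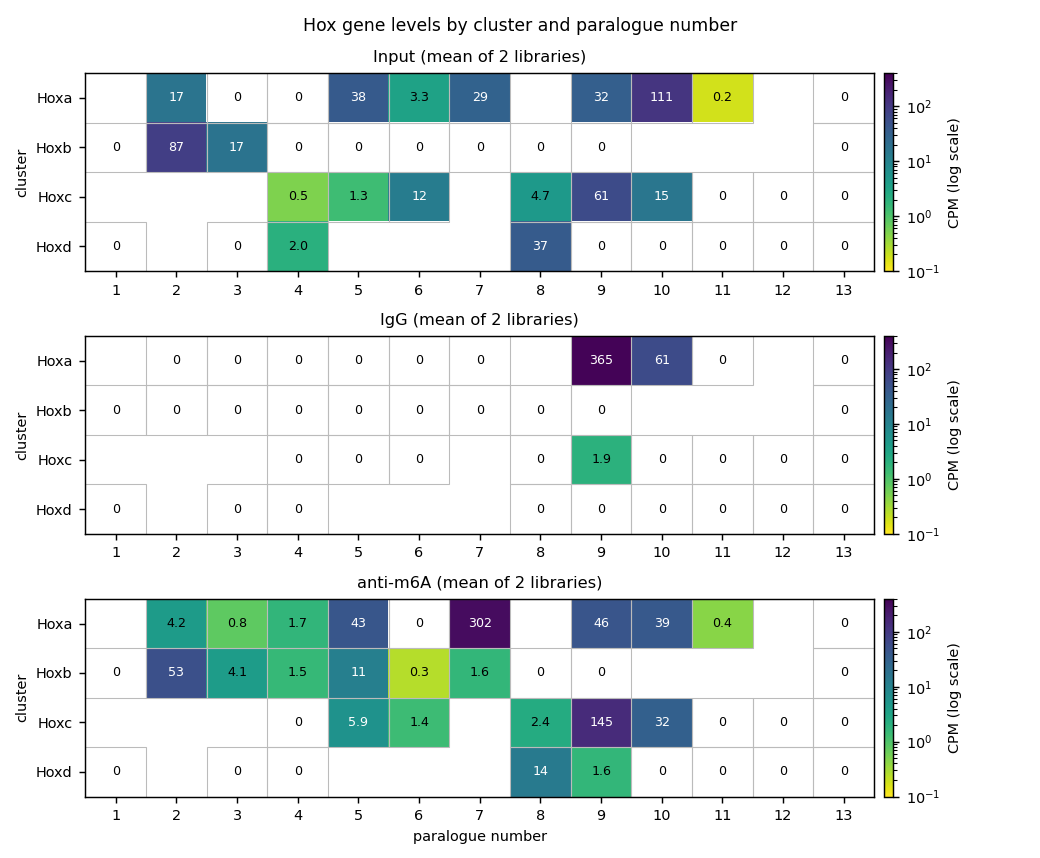
Mean level of the 2 libraries in CPM (colour on a log scale, value printed in each cell) for the Hox genes, with cluster in rows and paralogue number in columns, for Input, IgG and anti-m6A. Cells without a frame have no such gene, or one that is not reported. IgG holds values for Hoxa9, Hoxa10 and Hoxc9 alone, and columns 12 and 13 are 0 in all 3 panels.

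Hox genes together took up between 0.0423% and 0.0585% of each library, made up of different genes in the 3 fractions. The share of all counts was 0.0585% (exact 95% binomial interval 0.0568 to 0.0603) and 0.0481% (0.0467 to 0.0495) in Input. It was 0.0525% (0.0497 to 0.0554) and 0.0423% (0.0388 to 0.0460) in IgG, and 0.0565% (0.0546 to 0.0584) and 0.0549% (0.0529 to 0.0570) in anti-m6A. By these shares the Input range overlapped with that of each other group, while both IgG libraries lay below both anti-m6A libraries. CPM instead use library sizes scaled by edgeR's TMM method. In CPM, Hox genes summed to 493 and 443 in Input, 505 and 351 in IgG and 715 and 711 in anti-m6A. On that scale both anti-m6A libraries lay above the Input and IgG libraries. An exact two-sided permutation test of 2 against 2 libraries cannot go below p = 0.333. In IgG nearly all of the Hox share was Hoxa9, with 76.2% and 98.5% of the Hox counts, and Hoxa10, with 23.4% and 0.924%. Without Hoxa9 and Hoxa10, the share of all counts was 0.0418% and 0.0323% in Input, 0.0486% and 0.0496% in anti-m6A, and rested on 5 and 3 counts in IgG, all of Hoxc9. The central genes made up 29.4% and 24.01% of Hox counts in Input and 52.1% and 55.0% in anti-m6A, while the anterior genes made up 22.2% and 30.8% in Input and 9.69% and 9.19% in anti-m6A. Hoxa7, a central gene, alone was 7.10% and 5.26% of Hox counts in Input and 40.9% and 43.8% in anti-m6A. Of the other central genes, Hoxa5, Hoxa6, Hoxc6, Hoxc8 and Hoxd8 had smaller shares in both anti-m6A libraries than in both Input libraries. Hoxb5, Hoxb7 and Hoxc5 had larger ones, at most 1.84% (Hoxb5 in anti-m6A 2).

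**Figure D3:**
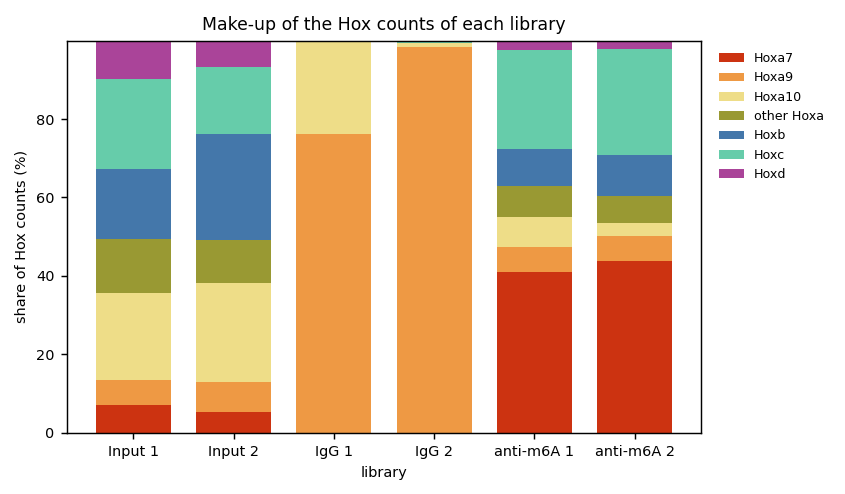
Share of each library's Hox counts, in percent on the vertical axis, taken by Hoxa7, Hoxa9, Hoxa10, the other Hoxa genes and the Hoxb, Hoxc and Hoxd clusters, with the 6 libraries on the horizontal axis. Hoxa9 takes 76.2% and 98.5% in IgG, and Hoxa7 40.9% and 43.8% in anti-m6A.

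In Input, levels were compared between genes as CPM per kilobase of the chosen transcript. Hoxb2, which acts in hindbrain and neural crest, was highest at 53.2 ± 11.6 CPM per kilobase (SD, n = 2). Hoxa10, a regulator of limb and uterine patterning and of bone formation, followed at 43.2 ± 0.587, and its libraries lay below both of Hoxb2. Hoxc9, a thoracic-level gene, had 25.7 ± 10.5 and overlapped with Hoxa5 (20.2 ± 3.12), which patterns the cervicothoracic skeleton and the lung. Below Hoxa5, which did not overlap with its next neighbour, each gene in the order Hoxa7, Hoxd8, Hoxa9, Hoxa2, Hoxc10, Hoxc6, Hoxb3, Hoxa6 and Hoxc8 overlapped with the next, from 14.5 ± 4.13 for Hoxa7 to 2.53 ± 0.637 for Hoxc8. Hoxd4, Hoxc5, Hoxc4 and Hoxa11 were under 1 CPM per kilobase. The order therefore followed neither the paralogue number nor the cluster: an anterior, a posterior, a posterior and a central gene led it. The first place of Hoxb2 is uncertain, since exons of the antisense gene Hoxb3os overlap 58.5% of its transcript and the libraries carry no strand. The lengths are those of 1 annotated transcript each; for Hoxa9 it is 3226 nucleotides long, and another transcript would give another level per kilobase.

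Replicate agreement differed by fraction. The larger CPM was divided by the smaller for Hox genes with counts in both libraries and at least 20 in any library. This ratio had a median of 1.55 in Input (14 genes, 1.02 to 5.79) and 1.10 in anti-m6A (14 genes, 1.006 to 2.33). The sets differ in Hoxa6, measured in Input alone, and Hoxb5, measured in anti-m6A alone. In IgG 3 genes were measured in both libraries, with ratios from 1.006 to 36.4. Hoxa10 in IgG was the extreme, with 305 counts in IgG 1 and 5 in IgG 2.

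**Figure D4:**
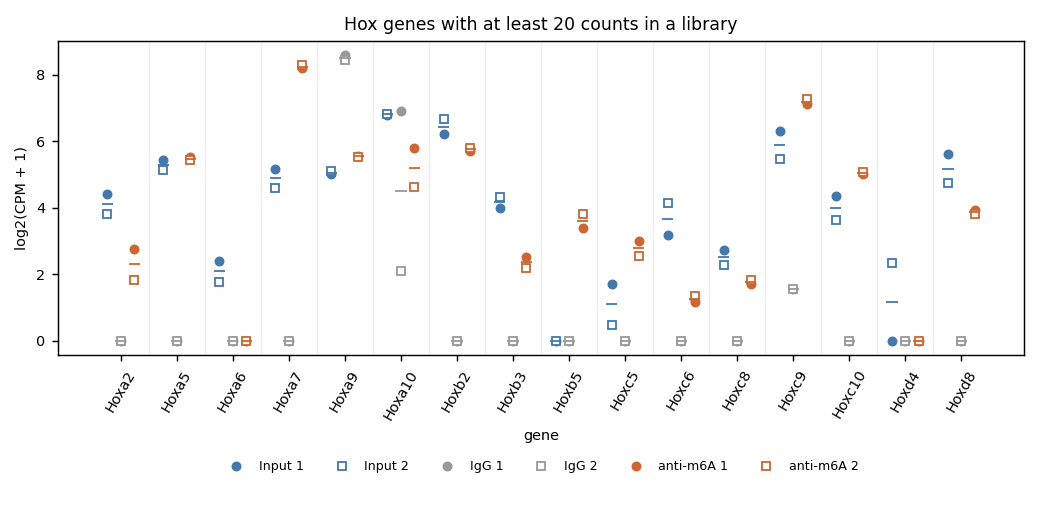
Level in each of the 6 libraries, as log2(CPM + 1), for the 16 Hox genes with at least 20 counts in a library. Colours are the groups, filled circles library 1 and open squares library 2; short lines are means of the log2 values, and Hoxa10 in IgG (118 and 3.24 CPM) and Hoxd4 in Input lie apart.

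Anti-m6A against Input asks which transcripts have a higher or lower level in the bound RNA than in the starting RNA. Levels here are counts over TMM-scaled library sizes, not plain shares of all counts. For a gene at 0 in a group, the fold is given as a bound against 3 counts per library, which covers counting error alone. It leaves out the spread between libraries, so the fold could be smaller. In Input, Hoxd4 had 0 and 42 counts and the Polycomb gene Rnf2 had 22 and 780. The count filter was passed by 15 of the 39 Hox genes, so that the rest have no test. Of these 15, edgeR's quasi-likelihood test called 3 higher, where 28.0% of the 11281 genes tested were called higher, and 3 lower, where 20.5% were called lower, at an adjusted p under 0.05. The higher genes were Hoxa7, Hoxb5 and Hoxc9 and the lower genes Hoxa6, Hoxb3 and Hoxc6. The median log2 change was -0.71 over the 15 Hox genes and 0.18 over all genes tested. The counts of Hox genes called were thus not far from the background in either direction. Of these 6 genes, Hoxa7 alone kept its call in all 12 alternative settings in which it was tested. Leaving out an anti-m6A library took calls away over the whole table: without anti-m6A 1, 370 genes were called higher and 72 lower, and without anti-m6A 2, 408 and 93, against 3156 and 2308. A call lost under these settings says little about the gene itself.

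Hoxa7, a central gene that patterns the thoracic vertebrae, had 296 and 240 counts in Input, 0 in both IgG libraries and 1409 and 1236 in anti-m6A. These were 35.0 and 23.3 CPM in Input and 292 and 312 CPM in anti-m6A, so the groups lay far apart. It was higher in anti-m6A than in Input by 3.37 ± 0.34 on the log2 scale, a 10.4-fold change (SE; edgeR adjusted p = 0.00716). Its adjusted p stayed at or under 0.0495 in each alternative, by edgeR and DESeq2. Over 28.8% of its transcript, exons of the antisense RNA gene Hoxaas3 overlap. Hoxaas3 has its own row in the table, at 0 counts in all 6 libraries; within the overlap, reads of both cannot be told apart without strand.

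Hoxb5, a central gene that marks long-term haematopoietic stem cells and also patterns the shoulder level, was listed at 0 in Input and IgG and had 46 and 52 counts in anti-m6A. This was 9.54 and 13.1 CPM, by counting error alone at least 35.1-fold higher than Input (edgeR adjusted p = 0.00716). Without anti-m6A 1 or anti-m6A 2, when few genes of the table were called, it was not called (edgeR adjusted p = 0.0909 and 0.106), and its counts in the remaining library were as above. Hoxc9 had 663 and 447 counts in Input, 5 and 3 in IgG and 669 and 602 in anti-m6A. At 78.5 and 43.4 CPM in Input and 139 and 152 CPM in anti-m6A the groups did not overlap, and the change was 1.25 ± 0.36 on the log2 scale, or 2.38-fold (edgeR adjusted p = 0.0365). Hoxc9 was the least stable of the 3. It lost the call under DESeq2 size factors (log2 change 0.79, edgeR adjusted p = 0.149), library totals (0.69, 0.189) and DESeq2's own test (0.80, 0.107), and when IgG 1 or 2 was left out (edgeR adjusted p = 0.0818 and 0.0819). Without anti-m6A 1 or 2 its log2 change was 1.33 and 1.13, not called (0.247 and 0.352).

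The 3 genes called lower were central or anterior. Hoxa6, which neighbours Hoxa7 in the cluster, had 36 and 25 counts in Input and 0 in IgG and anti-m6A. Its Input level of 4.26 and 2.43 CPM makes anti-m6A at least 4.85-fold lower (edgeR adjusted p = 0.0138). Hoxb3, an anterior gene of the hindbrain and pharyngeal arches, had 127 and 196 counts in Input, 0 in IgG and 23 and 14 in anti-m6A, and fell by 2.03 ± 0.47 on the log2 scale (edgeR adjusted p = 0.0281). Hoxc6, a gene of the thoracic level, had 68 and 171 counts in Input, 0 in IgG and 6 and 6 in anti-m6A, and fell by 3.14 ± 0.61 (edgeR adjusted p = 0.0174). Without anti-m6A 1 or anti-m6A 2, when few genes of the table were called, the log2 changes were -2.24 and -1.87 for Hoxb3 (edgeR adjusted p = 0.421 and 0.524) and -2.98 and -3.32 for Hoxc6 (0.359 and 0.347), close to the values of the whole fit. Hoxa6, at 0 in both, was not called either (0.276 and 0.270). Exons of the antisense gene Hoxb3os overlap 70.5% of the Hoxb3 transcript, so its counts are uncertain. Hoxa6 and Hoxa7 thus lie side by side on chromosome 6 and were called in opposite directions.

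The other 9 tested genes did not pass the test. Hoxa5 had 356 and 349 counts in Input, 0 in IgG and 217 and 166 in anti-m6A, with levels of 42.1 and 33.9 CPM against 45.01 and 41.8 that overlap (log2 change 0.19 ± 0.35, edgeR adjusted p = 0.688). Its sign turned with DESeq2 size factors (-0.26) and library totals (-0.36). Hoxc10, a posterior gene of the lumbar and hindlimb level, had 164 and 118 counts in Input, 0 in IgG and 150 and 129 in anti-m6A (log2 change 1.04 ± 0.48, edgeR adjusted p = 0.147). Hoxc5, of the neck and shoulder level, had 19 and 4 counts in Input, 0 in IgG and 34 and 19 in anti-m6A (2.17 ± 0.91, 0.121). For Hoxc10 and Hoxc5 anti-m6A lay above both Input libraries without passing the test; both passed it without Input 1 (edgeR adjusted p = 0.00452 and 0.00650), and Hoxc10 also without Input 2 (0.0356).

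Hoxa2, an anterior gene of the second pharyngeal arch, had 173 and 133 counts in Input, 0 in IgG and 28 and 10 in anti-m6A (log2 change -1.99 ± 0.64, edgeR adjusted p = 0.0646). Hoxb2 had 619 and 1030 in Input, 0 in IgG and 247 and 217 in anti-m6A (-0.71 ± 0.32, 0.139). Hoxd8, the one Hoxd gene that passed the filter, had 402 and 267 counts in Input, 0 in IgG and 68 and 52 in anti-m6A (-1.43 ± 0.51, 0.0822). These 3 lay lower in anti-m6A than in both Input libraries, and each passed the test as lower with DESeq2 size factors (edgeR adjusted p = 0.0418, 0.0396 and 0.0495), which shift the median of all genes by -0.40 on the log2 scale. Without Input 1 all 3 were called lower (0.0394, 0.0153 and 0.0227), and without Input 2 Hoxa2 (0.0104) and Hoxd8 (0.00176) were. Hoxc8, of the lower thoracic level, had 47 and 40 counts in Input, 0 in IgG and 11 and 10 in anti-m6A (-0.97 ± 0.41, 0.127). It passed with library totals alone among the scalings (edgeR adjusted p = 0.0496). Exons of Hoxb3os also overlap 58.5% of the Hoxb2 transcript, and 15.04% of the Hoxa2 transcript is overlapped by Gm28308 on the same strand.

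**Figure D5:**
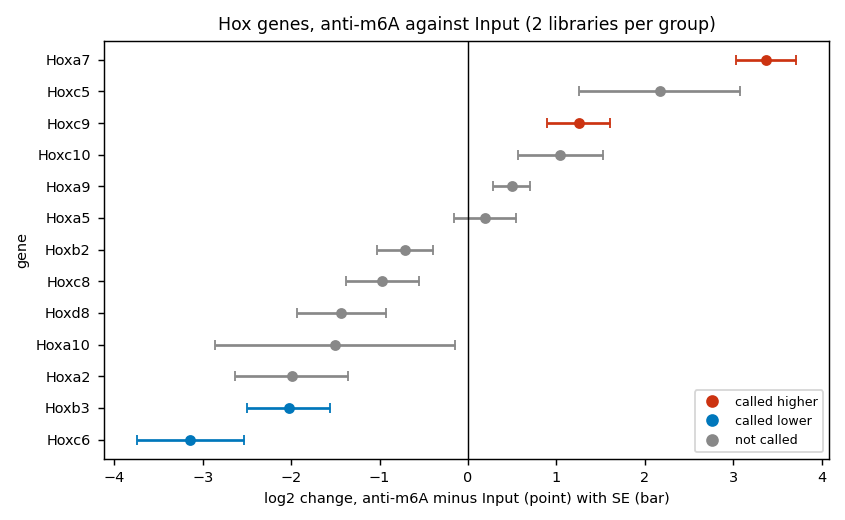
Log2 change in anti-m6A against Input on the horizontal axis for 13 tested Hox genes, with bars of 1 SE from edgeR and colour for the call. Hoxa7 lies farthest to the right at 3.37 and Hoxc6 farthest to the left at -3.14; Hoxb5 and Hoxa6, at 0 in a group, have no fold and are left out.

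Among Hox genes with few counts, several were detected in one fraction alone. With 0 counts in both Input libraries and counts in both anti-m6A libraries there were 7 of the 25 detected Hox genes (28.0%), where 14.8% of the 14425 detected genes of the table showed this. Among them, besides Hoxb5, were Hoxa3 (5 and 2 counts in anti-m6A), Hoxa4 (8 and 7), Hoxb4 (10 and 4), Hoxb7 (6 and 8) and Hoxd9 (11 and 4), all at 0 in IgG too. The reverse, counts in both Input libraries and none in anti-m6A, held for Hoxa6 and Hoxc4 (6 and 3 counts in Input), 2 of the 25, where 3.37% of all detected genes showed it. These genes were mostly anterior or central, and apart from Hoxb5 and Hoxa6 the count filter kept them out of the reported fit. With no count filter, 8 of the 25 detected Hox genes were called higher in anti-m6A than in Input, where 3314 of 14425 genes were, and 3 lower, where 2112 were. Hoxd4 had 42 counts in Input 2 and 0 in the other 5 libraries, Hoxa11 had 3 in Input 1 and 3 and 1 in anti-m6A, and Hoxb6 had 2 in anti-m6A 2 alone. Exons of the antisense gene Hoxa11os overlap 35.0% of the Hoxa11 transcript.

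IgG against Input and anti-m6A against IgG measure the background of the pull-down; the 3 comparisons share libraries and are not independent. In IgG, 3 of the 25 detected Hox genes had counts in both libraries (12.0%), where 18.1% of all detected genes did. Of the 15 tested, edgeR called 1 higher in IgG than in Input, where 9.89% of all genes were, and 11 lower, where 61.5% were. The median log2 change was -9.03 over the 15 and -8.23 over all genes, both resting on fitted values of genes at 0. The 11 were Hoxa2, Hoxa5, Hoxa6, Hoxa7, Hoxb2, Hoxb3, Hoxc6, Hoxc8, Hoxc9, Hoxc10 and Hoxd8. IgG was at least 2.15-fold lower for Hoxa6, at least 55.8-fold lower for Hoxb2, and fell by 4.96 ± 0.46 on the log2 scale for Hoxc9 (edgeR adjusted p = 0.000690). The Hoxa6 call was kept in 6 of 12 alternatives. It was lost with DESeq2's own test, with the replicate block, and without IgG 1, IgG 2, anti-m6A 1 or anti-m6A 2. Hoxc5, at 0 in IgG, was not called (edgeR adjusted p = 0.0748), and without Input 2 it was (0.0179).

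The gene higher in IgG was Hoxa9, a posterior gene of haematopoietic progenitors and of the proximal limb skeleton. It had 263 and 345 counts in Input, 995 and 533 in IgG and 220 and 180 in anti-m6A, or 31.1 and 33.5 CPM for Input, 385 and 345 for IgG, and 45.6 and 45.4 for anti-m6A. Both IgG libraries lay far above the other 4. It was 11.3-fold higher in IgG than in Input (log2 change 3.498 ± 0.23, edgeR adjusted p = 0.000516), and was called so in all 13 alternatives. Anti-m6A fell by 3.004 ± 0.22 on the log2 scale against IgG (edgeR adjusted p = 0.000594), also in all 13. Anti-m6A against Input was not called (0.49 ± 0.21, 0.107) and its sign changed with library totals (-0.048) and with at least 10 counts required in each library (-0.070). The blood markers listed above were also higher in IgG, with 4 of 4 tested called higher than in Input. S100a8, a neutrophil gene, had 213 and 1292 counts in Input, 3587 and 1527 in IgG and 0 in anti-m6A. The part of such RNA in the Hoxa9 counts was not tested.

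Hoxa10 had IgG libraries that disagreed, and its comparisons with IgG turned on them. There were 928 and 1154 counts in Input, 305 and 5 in IgG and 263 and 93 in anti-m6A, or 109.8 and 112 CPM, 118 and 3.24 CPM, and 54.5 and 23.4 CPM. Both anti-m6A libraries were below both Input libraries, but no comparison passed the test in the fit of all 6 (edgeR adjusted p = 0.405 against Input, 0.676 against IgG, and 0.629 for IgG against Input). Without IgG 1, anti-m6A against IgG turned from -0.65 to 3.60 on the log2 scale and was called (edgeR adjusted p = 0.0219), and IgG was called lower than Input (log2 change -5.15, edgeR adjusted p = 0.0104). Without IgG 2, IgG against Input was 0.054 and not called. A fit of the 4 IgG and Input libraries alone called IgG lower (log2 change -1.40, edgeR adjusted p = 0.0162). The fit of all 6 shares 1 spread per gene, so its 0.405 for anti-m6A against Input also carries the disagreement of the IgG libraries. With the 4 anti-m6A and Input libraries alone, that log2 change was -1.42 and was not called (edgeR adjusted p = 0.0751).

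Against IgG, 12 of the 15 tested Hox genes were higher in anti-m6A, where 73.1% of all genes were called higher, and Hoxa9 was lower, where 8.31% were. The median log2 change was 7.47 over the 15 and 8.48 over all. The 12 were Hoxa2, Hoxa5, Hoxa7, Hoxb2, Hoxb3, Hoxb5, Hoxc5, Hoxc6, Hoxc8, Hoxc9, Hoxc10 and Hoxd8. All but Hoxc9 were at 0 in IgG. Hoxa7 was at least 195-fold higher, Hoxb2 at least 34.1-fold, Hoxa5 at least 28.0-fold and Hoxc10 at least 20.5-fold, while Hoxc9 was 74.1-fold higher (log2 change 6.21 ± 0.47, edgeR adjusted p = 0.000601). Hoxc6, at 1.24 and 1.51 CPM, was under the level that 3 counts stand for in IgG, so it has no bound. Without anti-m6A 1 or anti-m6A 2 the calls of Hoxc5 (edgeR adjusted p = 0.0959 and 0.0637), Hoxc6 (0.0834 and 0.0996) and Hoxc8 (0.0880 and 0.0962) were lost, as was that of Hoxb5 without anti-m6A 2 (0.0627). Hoxc5 (0.0656) and Hoxc6 (0.0670) also lost it without IgG 1. Of the 3 genes lower in anti-m6A than in Input, Hoxb3 was at least 2.67-fold higher in it than in IgG, Hoxc6 was called without a bound, and Hoxa6 was at 0 in both.

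Genes that act with or upstream of Hox proteins were taken from lists, since the Hox genes' cofactors and chromatin regulators were measured in the same libraries. Of the TALE homeodomain cofactors, which bind DNA together with Hox proteins, 7 of 9 were tested, with 1 higher and 2 lower in anti-m6A than in Input, where 28.0% and 20.5% of all genes were. Pknox2 had 0 counts in Input and IgG and 96 and 84 in anti-m6A, by counting error alone at least 63.6-fold higher (edgeR adjusted p = 0.00716). Pbx2, a partner of many Hox proteins, had 282 and 566 counts in Input, 0 in IgG and 10 and 4 in anti-m6A, and fell by 4.81 ± 0.67 on the log2 scale against Input (edgeR adjusted p = 0.00834). Meis3, the most abundant by Input counts, had 835 and 2261 counts in Input, 0 in IgG and 317 and 290 in anti-m6A, and was not called.

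Regulators of Hox transcription outside the Polycomb group were histone-modifying enzymes such as Kmt2a, retinoic acid receptors, Cdx factors and CTCF. Of these, 6 of 10 were tested, with 2 higher and 2 lower (28.0% and 20.5% over all genes). Of the retinoic acid receptors, Rarb had 0 counts in Input and IgG and 355 and 299 in anti-m6A. By counting error alone this was at least 231-fold higher than Input (edgeR adjusted p = 0.00716). Rara had 35 and 39 in Input, 0 in IgG and 127 and 87 in anti-m6A, 2.60 ± 0.45 higher on the log2 scale (edgeR adjusted p = 0.0133). Rarg went the other way, with 642 and 524 in Input and 41 and 44 in anti-m6A, and fell by 2.69 ± 0.45 (edgeR adjusted p = 0.0124). The histone acetyltransferase gene Kat6a had 107 and 93 in Input and 1 and 0 in anti-m6A, and fell by 6.33 ± 0.93 (edgeR adjusted p = 0.00925). Kmt2a (MLL1), with 423 and 838 in Input and 296 and 276 in anti-m6A, and Ctcf, with 665 and 749 and 223 and 232, were not called. Cdx1, Cdx2 and Cdx4 were at 0 in all libraries.

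The Polycomb group, which keeps Hox genes silent outside their domain, had 13 of 14 members tested, with 5 higher and 5 lower, beside the shares of 28.0% and 20.5% over all genes. Of the PRC2 genes, Ezh1 had 0 counts in Input and 104 and 93 in anti-m6A (at least 69.7-fold by counting error alone). Ezh2 had 50 and 29 and then 125 and 108 (log2 change 2.60 ± 0.58, edgeR adjusted p = 0.0253), and Suz12 had 2 and 1 and then 32 and 12 (4.71 ± 0.72, 0.0101). Eed, also of PRC2 and outside the rule for named genes, had 277 and 86 counts in Input and 55 and 27 in anti-m6A, with a log2 change of -1.17 ± 0.83 that was not called (edgeR adjusted p = 0.312). The PRC1 genes Cbx2 and Cbx8 were at 0 in Input and had 15 and 17, and 35 and 15, counts in anti-m6A. The PRC1 genes were at least 11.4-fold (Cbx2) and 17.1-fold (Cbx8) higher by these bounds. Other PRC1 genes were lower. On the log2 scale Bmi1, with 107 and 300 counts in Input and 1 and 3 in anti-m6A, fell by 5.41 ± 0.93, and Pcgf2, with 234 and 438 and then 22 and 13, fell by 3.15 ± 0.53. Cbx7 (292 and 134, then 6 and 6) fell by 4.09 ± 0.74 and Phc1 (523 and 721, then 60 and 33) fell by 2.66 ± 0.42. The edgeR adjusted p-values of these 4 ran from 0.0110 for Phc1 to 0.0150 for Cbx7. Rnf2 (22 and 780, then 22 and 12) and Phc2 (451 and 272, then 272 and 235) were not called. The 14 genes were all at 0 in IgG. Over these 3 lists together 8 genes were higher and 9 lower of 26 tested, where 28.0% and 20.5% of all genes were. Without anti-m6A 1 or anti-m6A 2, 1 and 1 of the listed genes were called higher and 0 and 0 lower, in fits that called few genes of any kind, as given above.

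Of limb and girdle positional factors, 6 of 9 were tested, with 2 higher and 2 lower, again beside 28.0% and 20.5% over all genes. Tbx5, the forelimb factor, and Emx2 and Lmx1b were at 0 in all 6 libraries. Pitx1, a hindlimb factor, had 15 and 64 counts in Input, 0 in IgG and 315 and 193 in anti-m6A (log2 change 3.82 ± 0.80, edgeR adjusted p = 0.0212), and Tbx4, another, had 28 and 26 in Input and 0 in the others. Shox2, of the proximal limb, had 368 and 281 in Input and 454 and 459 in anti-m6A (1.57 ± 0.38, 0.0321). Hand2, of the posterior limb bud, had 149 and 296 in Input and 0 and 3 in anti-m6A, and fell by 5.93 ± 1.33 (edgeR adjusted p = 0.0259). Tbx15 and Tbx18 were not called, with 92 and 462 and 115 and 157 counts in Input and 137 and 108 and 25 and 1 in anti-m6A. The bones of origin are not given in the labels, so these levels stand as measured.

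Of the noncoding and flanking genes of the clusters, 6 of 12 listed were in the table. Hoxa11os, the antisense RNA of Hoxa11, had 3 and 132 counts in Input, 0 in IgG and 190 and 159 in anti-m6A, and its change against Input was not called (log2 2.59), with Input libraries far apart. Of the microRNA genes of the clusters, Mir196b, next to Hoxa9, had 9 and 3 counts in anti-m6A alone and Mir10a, Mir10b, Mir196a-1, Mir196a-2 and Mir615 had none. Evx1 and Evx2, beyond the posterior ends of Hoxa and Hoxd, were at 0.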

How the data were processed

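Counts were used as the authors deposited them, in a single table of whole-number reads per Entrez gene. Tools named in the submitters' processing notes are edgeR 3.38.1, featureCounts and Picard, with build mm10; which aligner and which annotation were used is not given in the sources used here. Per the labels' protocols, poly(A) RNA was captured, incubated with antibody-bound beads and eluted, and libraries were made by Smart-seq2, without molecular identifiers or strand. Of 27179 genes, 25275 matched a RefSeq symbol (GRCm38).

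Groups came from the sample titles. Counts were fitted with edgeR 4.0.16 (R 4.3.3, limma 3.58.1): filterByExpr (minimum count 10, minimum total 15) left 11281 genes, TMM scaled the libraries, and 1 quasi-likelihood fit of all 6 libraries (3 residual degrees of freedom) gave 3 contrasts, with Benjamini-Hochberg adjustment over all 11281 and a threshold of 0.05. Values in CPM are counts divided by the TMM-scaled library size, in the usual CPM unit. The SE is the log2 change divided by the square root of F. A gene at 0 in a group is given as at least so many fold, against 3 counts per library. DESeq2 1.42.0, Python 3.11.15 and pandas 2.3.3 were also used. The test was checked on simulated data. Intervals and limits cover counting error only. Alternatives were other scalings, count filters, DESeq2, the 2 groups alone, the replicate block and leaving out each library.

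The Hox genes and the gene lists were chosen with earlier results of these data known. Every tested Hox gene is named, values are printed for Hox genes with at least 20 counts in a library, and listed regulators are named where called in anti-m6A against Input or among the 3 with most Input counts. A few genes that this rule would name are not reported here. Genes with fewer counts that are also given were chosen after their values were seen.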

Additional observations from a re-analysis of the deposited data

How the results depend on the processing

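Over the 3 comparisons, scaling moved the calls most in anti-m6A against Input: Hox genes lower were 3 in the reported fit, 6 with DESeq2 size factors, 7 with library totals and 6 with DESeq2's own test. Hox genes higher were 8 of 25 with no count filter, where 3314 of 14425 genes were. With at least 10 counts required in each library, 1 Hox gene was tested, so Hox genes higher and lower against Input were 0 and 0, higher against IgG 0, and lower in IgG than Input 0. Leaving out each library gave 1 to 6 higher and 0 to 7 lower in anti-m6A against Input, 8 to 13 higher and 1 to 1 lower against IgG, and 1 to 1 higher and 10 to 12 lower in IgG against Input. Signs turned for Hoxa5 in anti-m6A against Input with DESeq2 size factors (log2 change -0.26), library totals (-0.36) and DESeq2's test (-0.25), for Hoxa9 with library totals (-0.048) and the stricter filter (-0.070), and for Hoxa10. Hoxa10 in anti-m6A against IgG ranged from -1.61 without IgG replicate 2 to 3.60 without IgG replicate 1, and in IgG against Input from -5.15 without IgG replicate 1 to 0.054 without IgG replicate 2. Of the values that turned sign, the Hoxa10 value against IgG alone was called, and the cause was not tested.

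The replicate number was not treated as pairing: deviations of same-numbered libraries correlated at 0.0425 (Input and IgG), 0.0901 (Input and anti-m6A) and 0.107 (IgG and anti-m6A) across genes. With the replicate block, 2 Hox genes were higher and 0 lower in anti-m6A against Input: Hoxc9 (edgeR adjusted p = 0.0636), Hoxa6 (0.0836), Hoxb3 (0.125) and Hoxc6 (0.0708) were no longer called, while over all genes 2122 were higher and 1242 lower. Against Input, the scalings shift the median of all genes by -0.40 (DESeq2 size factors) and -0.51 (library totals). Of the listed regulators, against 8 and 9 in the reported fit, 3 were higher with the block, 0 higher and 1 lower with at least 10 counts in each library, and 0 lower in IgG than Input under that filter, against 18. The low totals of IgG limit what can be read from a gene at 0 there.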
